A study of Danio rerio with 12 samples.

Results

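The 10 genes of skeletal muscle described here, followed in RNA from whole zebrafish eyes, are acta1a, acta1b, mylpfa, mylpfb, tnnt3a, tnnt3b, ckma, ckmb, mb and tnnc2. They were chosen by name, as genes of contraction and energy supply of the muscles that move the eye. Earlier results of these data were known when they were chosen. Of the 10 genes, 9 were found by their symbol in the annotation of the array. The tenth, tnnc2, is a RefSeq synonym of tnnc2.2 and is reported under that symbol. The 10 genes had 11 probe sets, of which 2 belonged to acta1b, and they are 10 of 19260 genes with a probe set of their own. Genes counted as bright enough to test when at least 3 of 12 arrays put them over that array's 33rd percentile, taken across named probe sets. That left 14002 genes and 8 of the 10: mylpfb and tnnt3a were dim on every array and are given by their levels.

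The 12 arrays form 4 groups of 3 pools of eyes. The eyes came from fish that were heterozygous for a mutation in mmachc, which served as controls, or from mmachc mutants, which the titles call homozygous. Each genotype was sampled at 7 and at 28 days post fertilization (dpf), so fish of every group carried at least 1 mutant allele. The sources used here do not give the nature of the mutation, the size of the pools or their clutches of origin. All p-values therefore reflect the scatter among these pools alone, which may be technical. The mmachc product processes vitamin B12 inside the cell.

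Skeletal muscle contracts when calcium binds the troponin complex on the thin filament, whose backbone is actin, and myosin heads on the thick filament can then pull on it. Troponin C is the calcium sensor, troponin T ties the complex to tropomyosin, and the regulatory light chain sits on the neck of the myosin head. Muscle creatine kinase restores ATP from phosphocreatine, and myoglobin binds oxygen. An eye taken whole can carry pieces of the extraocular muscles, which turn the eyeball and attach to its outer coat. In bulk RNA, fewer muscle cells and less of a transcript per cell cannot be told apart.

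Levels are log2 intensities after RMA (robust multi-array average, which includes quantile normalization), so a difference of 1 is a 2-fold change, and levels of different genes cannot be set against each other. Over the tested genes, 2 arrays of a group correlated at 0.989 to 0.994. For mmachc itself the array has a probe set shared with hspa8, which ran from 7.19 to 7.57 over all arrays and does not check the genotype labels. Eye markers were bright on all 12 arrays: the cone transducin gene gnat2 ranged from 12.2 to 12.4, the lens crystallin gene cryba2a from 12.5 to 12.6 and the pigment gene pmela from 10.3 to 10.8. The lens gene cryaa (9.68 to 11.76) and the pigment epithelium gene rpe65a (9.97 to 11.58) varied more. The skin gene krt4 and the smooth muscle genes acta2 and tagln also lay above the 33rd percentile on all 12 arrays. The heart muscle gene myl7 was dim on all of them, at 4.14 to 4.76. Of 16 genes of the cardiac list 11 lay below the 33rd percentile on every array.

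**Figure D1:**
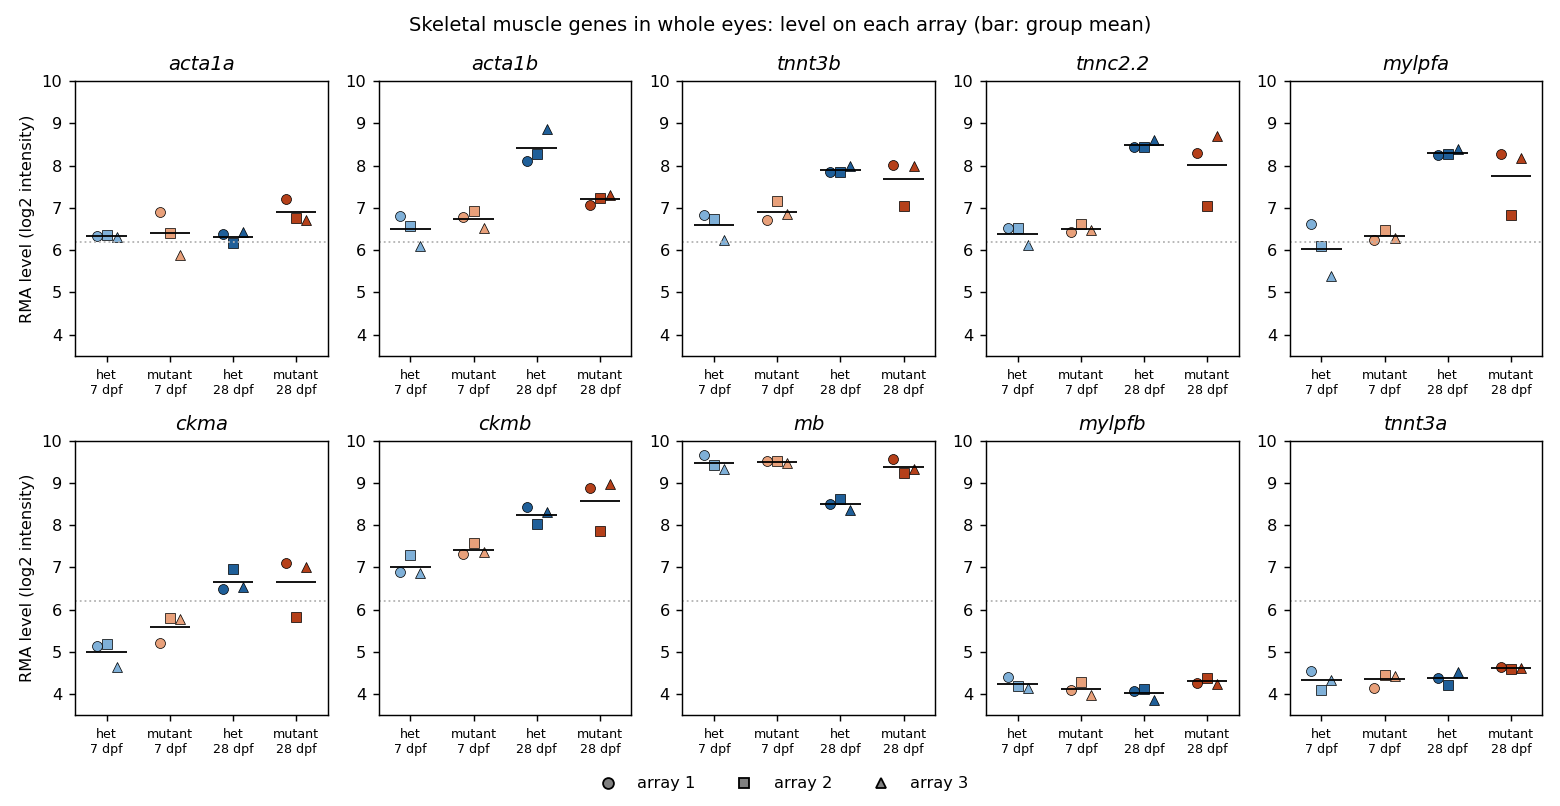
Level of each of the 10 muscle genes (log2 intensity, vertical axis) on the 12 arrays, grouped by genotype and age, with symbols for arrays 1 to 3 of a group, a bar at the group mean and a dotted line near the 33rd percentile across named probe sets (6.14 to 6.26). Array 2 of the mutant eyes at 28 dpf lies below the other arrays of its group for tnnt3b, tnnc2.2, mylpfa, ckma and ckmb, and mylpfb and tnnt3a lie below the dotted line throughout.

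Array 2 of the mutant eyes at 28 dpf stood apart in part of the muscle genes. Against the mean of the other 2 arrays of its group, its level differed by -1.44 on the log2 scale for tnnc2.2, -1.41 for mylpfa, -1.23 for ckma, -1.05 for ckmb and -0.97 for tnnt3b. Among the 14002 genes tested, 10 were at least 2-fold lower on this array than the mean of the other 2. They included 4 of the 8 muscle genes and 5 other genes of fibres in the muscle lists described further on: myhz2, atp2a1l, mylz3, myl1 and actn3a. The remaining gene, si:ch211-226h7.3, is outside these lists. Each of the other 11 arrays had 0 to 11 genes at least 2-fold lower than the rest of its group, and none of the 8 muscle genes was among them. On array 3 of the heterozygous eyes at 7 dpf, 2 of 4 such genes belonged to the muscle lists. The genes low on array 2 of the mutant eyes at 28 dpf were named after their values were seen. The gap was small for acta1a (-0.19) and mb (-0.21), and acta1b was 0.05 higher on this array than on the other 2. The 23 retina, lens and pigment epithelium genes of the same array deviated from their group mean by -0.01 on average. The lists of cartilage (0.02), smooth muscle (-0.06), tendon (-0.06), skin and cornea (-0.07) and cardiac muscle (-0.07) deviated by less than the 8 muscle genes (-0.54). Of the muscle lists, thick filament (-0.43), calcium (-0.22), energy (-0.14) and thin filament (-0.13) genes deviated further than these other tissues. The endplate (-0.04) and myogenic (-0.03) lists deviated by less than the skin and corneal genes.

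A smaller gap in the 8 genes was seen on array 3 of the heterozygous eyes at 7 dpf. All 8 tested muscle genes were lower there than the mean of the other 2 arrays, with differences from -0.04 for acta1a to -0.98 for mylpfa. On that array the lists of other tissues were low too, though by less: cartilage genes deviated from their group mean by -0.09, skin and corneal genes by -0.12 and retina, lens and pigment epithelium genes by -0.02, against -0.29 for the 8 muscle genes. Of the muscle lists, thick filament genes deviated by -0.29 and calcium genes by -0.12. The thin filament (-0.06), energy (-0.04), endplate (-0.0017) and myogenic (0.01) lists deviated by less than the skin and corneal genes. Of the 85 tested muscle list genes 63.5% were lower there than the mean of the other 2 arrays, against 58.1% of all genes. On array 2 of the mutant eyes at 28 dpf these shares were 72.9% and 45.1%. What sets these 2 arrays apart was not tested.

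**Figure D2:**
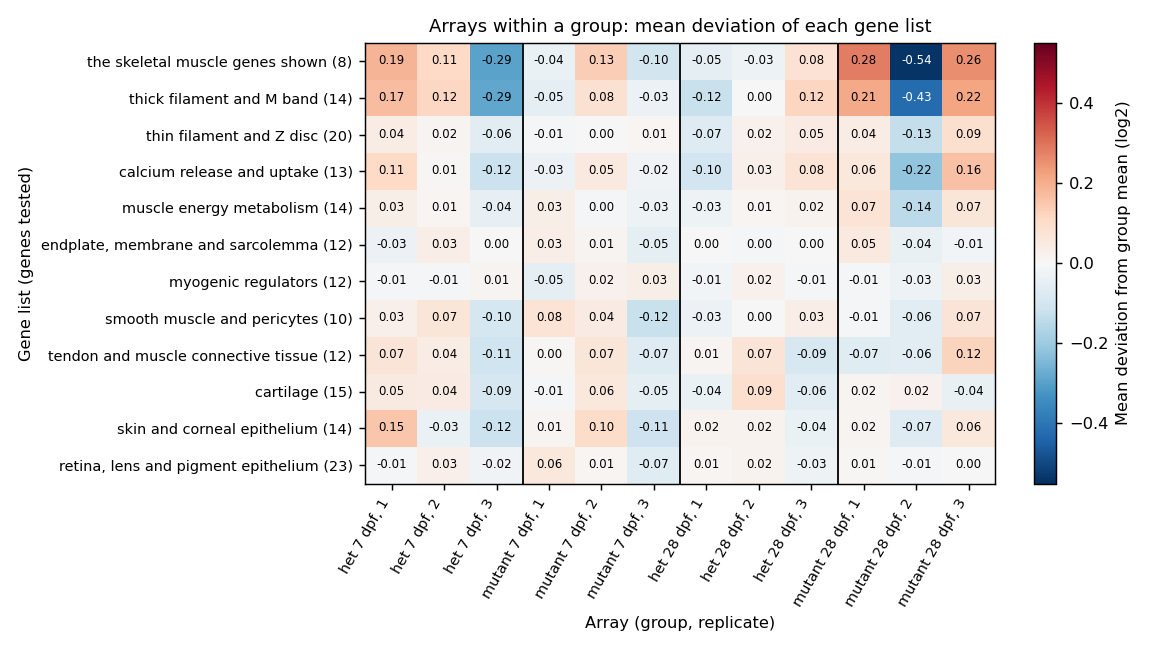
Mean deviation from the group mean (log2, colour and printed value) of the tested genes of each list (rows, number of genes in brackets) on each array (columns). The muscle genes described here deviate by -0.54 on array 2 of the mutant eyes at 28 dpf and by -0.29 on array 3 of the heterozygous eyes at 7 dpf, and the retina, lens and pigment epithelium genes by between -0.07 and 0.06 on every array.

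The comparison of 28 with 7 dpf asked how the genes changed between larval and juvenile eyes. In heterozygous eyes acta1b, mylpfa, tnnc2.2, tnnt3b, ckma and ckmb rose, by 1.23 to 2.27 on the log2 scale. Myoglobin (mb) fell by 0.98, and acta1a, the other skeletal actin gene, differed by -0.01 ± 0.19 (SE). Thus 6 of 8 rose, against 20.9% of all genes tested, and 1 fell, against 22.1% (limma, adjusted p under 0.05). The arrays of the 2 ages did not overlap for 7 of the 8 genes, against 56.3% of all genes. The median of the 8 differences was 1.48, and that of all genes -0.02.

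In mutant eyes 7 of the 8 genes rose from 7 to 28 dpf, against 26% of all genes, and none fell, against 37.9%. The ages did not overlap for 5 of the 8 genes, against 65.7% of all genes. The median of the 8 was 0.92, and that of all genes -0.06. For acta1a and acta1b the rise was small and was lost in several alternatives. Both age comparisons contain ckma, which passed the filter on low levels only through arrays at 28 dpf. Its rise with age is therefore partly fixed by the filter.

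**Figure D3:**
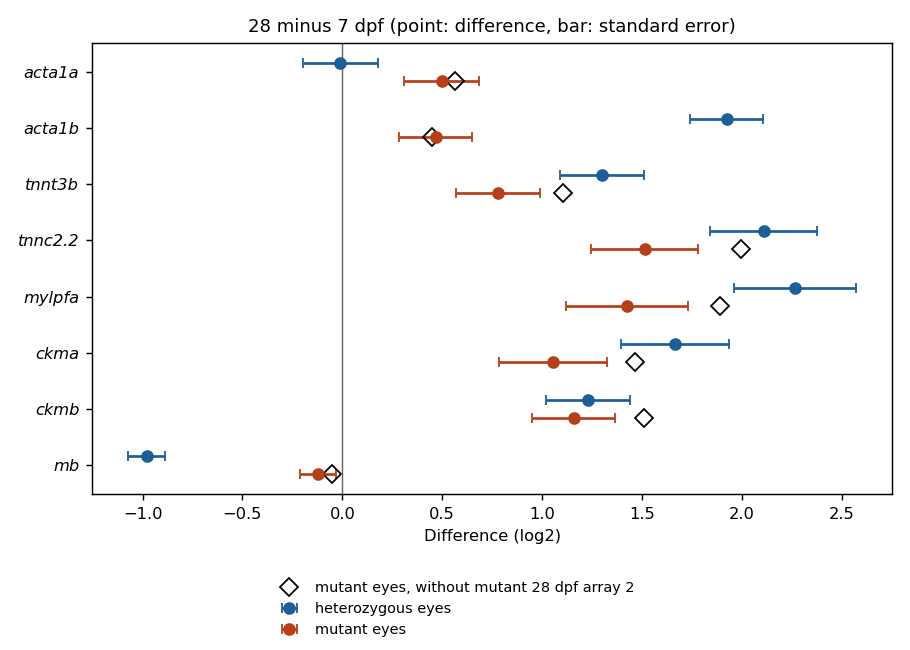
Difference between 28 and 7 dpf (log2, horizontal axis) of the 8 tested genes in heterozygous and mutant eyes, with standard errors as bars and, as open diamonds, the value in mutant eyes without array 2 of the mutant eyes at 28 dpf. The difference of acta1b is 1.92 in heterozygous and 0.47 in mutant eyes, and mb falls by 0.98 in heterozygous eyes and lies near 0 in mutant eyes.

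The comparison of genotypes asked which muscle genes differed in mutant eyes at each age. At 28 dpf acta1b fell by 1.21 and mb rose by 0.89 on the log2 scale, and acta1a rose by 0.58. The other 5 genes did not pass the test. So 2 of 8 rose, against 21.8% of all genes, 1 of 8 fell, against 39% of all genes, and the genotypes did not overlap for 3 of 8, against 64.4%. These shares are near or below the background. The median of the 8 was -0.11, against -0.09 for all genes. Array 2 of the mutant eyes decides that median: without it the median of the 8 was 0.26, against -0.09 for all genes, with 3 rises (ckmb passed too) and 1 fall. At 7 dpf none of the 8 rose or fell, against 4.05% and 8.4% of all genes, and all 8 differences were above 0. That common sign rests on the low array 3 of the heterozygous eyes: without it 3 of the 8 (mylpfa, mb and tnnc2.2) lay below 0. Without array 2 of the mutant eyes at 28 dpf 2 of the 8, ckma and ckmb, passed at 7 dpf. Without adjustment 1 of them, ckma, passed 0.05 in limma. The genotypes did not overlap for 2 of 8, ckma and ckmb, against 30.4% of all genes. The median of the 8 was 0.27 at 7 dpf, against -0.03 for all genes, and fell to 0.051 without array 3 of the heterozygous eyes, against -0.04.

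**Figure D4:**
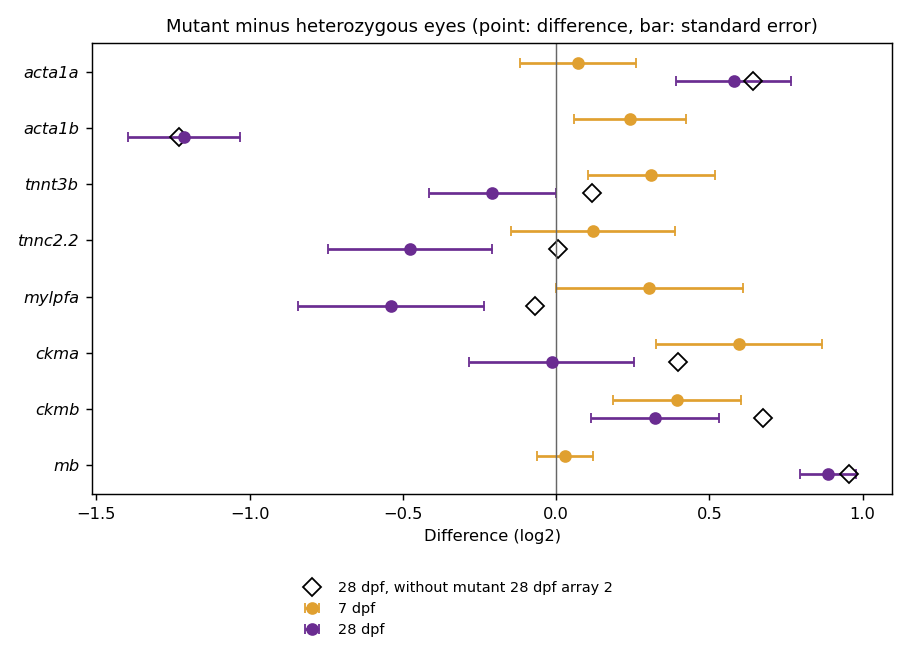
Difference between mutant and heterozygous eyes (log2, horizontal axis) of the 8 tested genes at 7 and at 28 dpf, with standard errors as bars and, as open diamonds, the 28 dpf value without array 2 of the mutant eyes at 28 dpf. With and without that array acta1b lies at -1.21 and -1.23 and mb at 0.89 and 0.96, while tnnc2.2 moves from -0.48 to 0.0051.

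The difference between the genotype effects at the 2 ages (28 dpf minus 7 dpf, the interaction) was negative and past the threshold for acta1b, and positive and past it for mb. That is 1 of 8 in each direction, against 18.1% of all genes upwards and 29.1% downwards. The interaction was -1.45 ± 0.26 for acta1b (SE, limma adjusted p = 0.00028) and 0.86 ± 0.13 for mb (adjusted p = 6.59e-05). For the other 6 genes it lay between -0.84 and 0.51 and did not pass. Without array 2 of the mutant eyes at 28 dpf it moved from -0.84 to -0.37 for mylpfa, from -0.60 to -0.11 for tnnc2.2, from -0.61 to -0.20 for ckma and from -0.52 to -0.19 for tnnt3b.

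Actin forms the thin filament, and zebrafish carry a pair of skeletal alpha actin genes in this set. On the 3 arrays of heterozygous eyes at 7 dpf acta1b measured 6.82, 6.58 and 6.11, and in mutant eyes of that age 6.79, 6.92 and 6.51. At 28 dpf it measured 8.11, 8.28 and 8.88 in heterozygous and 7.07, 7.24 and 7.31 in mutant eyes. The groups at 7 dpf overlap, the mutant eyes at 28 dpf lie above them, and the heterozygous eyes at 28 dpf lie above all others. The rise with age was 1.92 ± 0.18 (SE, n = 3 against 3, limma adjusted p = 4.82e-07) in heterozygous eyes, a 3.79-fold change. At 28 dpf mutant eyes were lower by 2.32-fold (-1.21 ± 0.18, 95% interval -1.60 to -0.83, adjusted p = 3.17e-05). Without array 2 of the mutant group at 28 dpf that difference was -1.23 (adjusted p = 0.000164), and over all alternatives its adjusted p lay between 1.29e-05 and 0.00111. At 7 dpf the difference was 0.24 ± 0.18 (adjusted p = 0.459), and 0.044 without array 3 of the heterozygous eyes (adjusted p = 0.925).

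In mutant eyes the rise of acta1b with age was 0.47 ± 0.18 (adjusted p = 0.0338). It did not pass without array 1 (adjusted p = 0.0559) or 3 (0.134) of the mutant eyes at 7 dpf, or without array 2 (0.0756) or 3 (0.0964) of the mutant eyes at 28 dpf. Nor did it pass with the mean over both probe sets of the gene (0.27, adjusted p = 0.0803), and over all alternatives the adjusted p ran from 0.00329 to 0.134. The second probe set of acta1b lay between 4.57 and 5.10 on all 12 arrays, below the 33rd percentile on each. Averaging it with the first brought the genotype difference at 28 dpf to -0.58 and the rise in heterozygous eyes to 0.92, and both still passed. Actin genes are close in sequence, so their probes may share transcripts and values of single actin genes are uncertain.

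The paralog acta1a did not follow acta1b. It measured 6.33, 6.36 and 6.30 in heterozygous eyes at 7 dpf and 6.91, 6.42 and 5.88 in mutant eyes of that age. At 28 dpf it measured 6.37, 6.17 and 6.42 in heterozygous and 7.21, 6.77 and 6.71 in mutant eyes. The first 3 groups overlap near the 33rd percentile of the arrays, and the mutant eyes at 28 dpf lie above the heterozygous eyes of either age but overlap the mutant eyes at 7 dpf. At 28 dpf it rose in mutant eyes, by 0.58 ± 0.19 (95% interval 0.18 to 0.98, adjusted p = 0.0142). The call was lost without array 2 of the heterozygous group at 28 dpf (0.50, adjusted p = 0.0576) and without array 1 of the mutant group at 28 dpf (0.42, adjusted p = 0.0813), with 0.00125 to 0.0813 over all alternatives.

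With age acta1a rose in mutant eyes by 0.50 ± 0.19 (adjusted p = 0.0293). That call was lost without array 2 (adjusted p = 0.0589) or 3 (0.24, adjusted p = 0.196) of the mutant eyes at 7 dpf and without array 1 of the mutant group at 28 dpf (0.34, adjusted p = 0.15). It was also lost when only the mutant arrays were fitted (adjusted p = 0.055), and the range was 0.000961 to 0.196. The interaction of acta1a, 0.51 ± 0.27 (adjusted p = 0.129), passed without array 1 of the mutant group at 7 dpf (0.76, adjusted p = 0.0105) and with centred arrays (0.68, adjusted p = 0.0352). Over all alternatives its adjusted p ran from 0.0105 to 0.345.

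Troponin C binds the calcium that starts contraction, and tnnc2 encodes the form of fast muscle. The gene tnnc2.2 measured 6.52, 6.52 and 6.11 in heterozygous and 6.42, 6.62 and 6.47 in mutant eyes at 7 dpf. At 28 dpf it measured 8.43, 8.45 and 8.61 in heterozygous and 8.29, 7.06 and 8.71 in mutant eyes. Both groups at 28 dpf lie above both groups at 7 dpf, and within each age the genotypes overlap. It rose with age by 2.11 ± 0.27 in heterozygous (4.32-fold, limma adjusted p = 1.12e-05) and by 1.51 ± 0.27 in mutant eyes (adjusted p = 0.000128). Without array 2 of the mutant eyes at 28 dpf the rise in mutant eyes was 1.996.

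The genotype difference of tnnc2.2 at 28 dpf was -0.48 ± 0.27 (95% interval -1.04 to 0.09, adjusted p = 0.134). It was 0.0051 without array 2 of that mutant group (adjusted p = 0.977) and passed, at -0.82, without array 3 of that group (adjusted p = 0.00852). The interaction, at -0.60 (adjusted p = 0.21), also passed without that array 3 (-0.94, adjusted p = 0.0262; range over all alternatives 0.0262 to 0.922). So the size and the call of the genotype difference depend on single arrays of that group. Without array 2 it is near 0. At 7 dpf the difference was 0.12 ± 0.27 (adjusted p = 0.837), and -0.017 without array 3 of the heterozygous eyes.

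The neighbouring gene tnnc2.1 has a probe set of its own and was looked up after the values of tnnc2.2 were seen. At 7 dpf it was dim, with means of 5.80 in both genotypes and 1 of 6 arrays above the 33rd percentile, so it was tested mainly through its arrays at 28 dpf. It measured 6.70, 7.89 and 7.84 in heterozygous and 5.99, 6.52 and 6.34 in mutant eyes at 28 dpf. The 3 mutant arrays lie below the 3 heterozygous arrays, and array 2 is the highest of the mutant arrays. The difference was -1.20 ± 0.25 (limma adjusted p = 0.000703). Its rise with age was 1.68 ± 0.25 in heterozygous (adjusted p = 6.29e-05) and 0.48 ± 0.25 in mutant eyes (adjusted p = 0.105), and the interaction was -1.19 ± 0.36 (adjusted p = 0.0122). Its rise with age is partly fixed by the filter and, with the interaction, is sized against a dim level. Only 2 of the 3 mutant arrays at 28 dpf lay above the 33rd percentile. The genotype difference of tnnc2.1 is therefore sized against levels near it, and its dependence on single arrays is not given.

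Troponin T anchors the troponin complex, and the tnnt3 genes encode the fast muscle form. In the order of the arrays, tnnt3b measured 6.82, 6.73 and 6.23 in heterozygous and 6.71, 7.16 and 6.85 in mutant eyes at 7 dpf. At 28 dpf it measured 7.86, 7.84 and 7.98 in heterozygous and 8.02, 7.04 and 7.997 in mutant eyes. Only array 2 of the mutant eyes at 28 dpf falls into the range of the larval arrays. The gene rose with age by 1.299 ± 0.21 in heterozygous (adjusted p = 0.000114) and by 0.78 ± 0.21 in mutant eyes (adjusted p = 0.00387; 1.1045 without that array). Between the genotypes it differed by 0.31 ± 0.21 at 7 dpf (adjusted p = 0.391; 0.13 without array 3 of the heterozygous group) and by -0.21 ± 0.21 at 28 dpf (95% interval -0.65 to 0.23, adjusted p = 0.401). The value at 28 dpf was 0.12 without array 2 of the mutant group (adjusted p = 0.524, range over all alternatives 0.158 to 0.971).

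The paralog tnnt3a lay between 4.11 and 4.66 on all 12 arrays, below the 33rd percentile on each. Its group means were 4.34, 4.35, 4.38 and 4.63 in heterozygous and mutant eyes at 7 dpf and at 28 dpf, in that order. With no filter on low levels the difference between genotypes at 28 dpf was 0.24 ± 0.13 (adjusted p = 0.134). At these levels a difference cannot be sized.

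The regulatory light chain of fast muscle myosin is encoded by mylpfa and mylpfb. Levels of mylpfa were 6.61, 6.10 and 5.38 in heterozygous and 6.25, 6.47 and 6.28 in mutant eyes at 7 dpf. At 28 dpf they were 8.24, 8.26 and 8.38 in heterozygous and 8.27, 6.82 and 8.19 in mutant eyes. All arrays at 28 dpf lie above all arrays at 7 dpf, and within each age the genotypes overlap. The rise with age was 2.27 ± 0.30 in heterozygous eyes (4.81-fold, limma adjusted p = 1.98e-05) and 1.42 ± 0.30 in mutant eyes (adjusted p = 0.000702; 1.89 without array 2 at 28 dpf). The larval level of mylpfa was dim on array 2 and array 3 of the heterozygous eyes, which makes the fold inexact.

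The genotype difference of mylpfa at 28 dpf was -0.54 ± 0.30 (95% interval -1.19 to 0.11, adjusted p = 0.137). Without array 2 of the mutant eyes it was -0.07 (adjusted p = 0.803), and without array 1 of that group it passed, at -0.79 (adjusted p = 0.046; range over all alternatives 0.046 to 0.803). The interaction of -0.84 (adjusted p = 0.12) passed without array 1 of the heterozygous group at 7 dpf (-1.13, adjusted p = 0.0373; range 0.0373 to 0.846). At 7 dpf the difference was 0.30 ± 0.30 (adjusted p = 0.598) and turned to -0.022 without array 3 of the heterozygous eyes (adjusted p = 0.978, range 0.294 to 0.978). Its paralog mylpfb was dim throughout, between 3.87 and 4.41. Group means of mylpfb were 4.25 and 4.13 at 7 dpf and 4.02 and 4.30 at 28 dpf, in heterozygous and mutant eyes. With no filter its difference at 28 dpf was 0.28 ± 0.12 (adjusted p = 0.0551).

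Creatine kinase of muscle buffers ATP during contraction. Levels of ckma were 5.15, 5.20 and 4.64 in heterozygous and 5.21, 5.80 and 5.78 in mutant eyes at 7 dpf. At 28 dpf they were 6.48, 6.96 and 6.54 in heterozygous and 7.11, 5.82 and 7.01 in mutant eyes. At 28 dpf array 2 of the mutant eyes is barely above the highest larval array, while the other 2 mutant arrays lie above all heterozygous arrays. The rise with age was 1.66 ± 0.27 in heterozygous (adjusted p = 0.000125) and 1.05 ± 0.27 in mutant eyes (adjusted p = 0.00289; 1.46 without that array). At 28 dpf the genotypes differed by -0.01 ± 0.27 (95% interval -0.59 to 0.56, adjusted p = 0.966), and by 0.40 without that array (adjusted p = 0.103, range 0.0698 to 0.97).

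At 7 dpf ckma was higher in mutant eyes by 0.60 ± 0.27 (adjusted p = 0.176). The 3 mutant arrays lay above the 3 heterozygous arrays, the lowest by a margin smaller than the spread within a group. Leaving out array 2 of the mutant eyes at 28 dpf, which enters only through the shared estimate of the spread, let it pass (adjusted p = 0.0398), and leaving out array 3 of the heterozygous group at 7 dpf brought it to 0.42 (adjusted p = 0.445). All levels of ckma at 7 dpf were dim.

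The second creatine kinase gene, ckmb, measured 6.90, 7.29 and 6.87 in heterozygous and 7.31, 7.57 and 7.37 in mutant eyes at 7 dpf. At 28 dpf it measured 8.43, 8.03 and 8.30 in heterozygous and 8.88, 7.87 and 8.97 in mutant eyes. As for ckma, mutant arrays 1 and 3 at 28 dpf lie above the heterozygous arrays and array 2 lies below them. The rises with age were 1.23 ± 0.21 (adjusted p = 0.000197) in heterozygous and 1.16 ± 0.21 (adjusted p = 0.000157) in mutant eyes. The genotype difference at 28 dpf was 0.32 ± 0.21 (95% interval -0.12 to 0.77, adjusted p = 0.192). It was 0.67 and passed without array 2 of the mutant eyes (adjusted p = 0.000499), and 0.52 with centred arrays (adjusted p = 0.038), with a range of 0.000499 to 0.638.

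At 7 dpf ckmb was higher in mutant eyes by 0.39 ± 0.21 (adjusted p = 0.258), with no overlap between the genotypes. It passed when only the arrays at 7 dpf were fitted (adjusted p = 0.0412) and without array 2 of the mutant group at 28 dpf (adjusted p = 0.0375; range 0.0375 to 0.492). Neither creatine kinase gene fell past the threshold in mutant eyes in any alternative at either age, though the difference of ckma at 28 dpf went down to -0.25.

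Myoglobin stores oxygen in muscle. Levels of mb were 9.66, 9.43 and 9.33 in heterozygous and 9.52, 9.52 and 9.47 in mutant eyes at 7 dpf. At 28 dpf they were 8.51, 8.61 and 8.36 in heterozygous and 9.57, 9.24 and 9.34 in mutant eyes. The heterozygous eyes at 28 dpf lie below all others, and the other 3 groups overlap. The gene fell with age in heterozygous eyes by 0.98 ± 0.09, a 1.97-fold change (limma adjusted p = 3.9e-07). In mutant eyes the change was -0.12 ± 0.09 (95% interval -0.31 to 0.07, adjusted p = 0.257).

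At 28 dpf mb was 1.85-fold higher in mutant than in heterozygous eyes (0.89 ± 0.09, 95% interval 0.69 to 1.08, adjusted p = 7.01e-07). At 7 dpf the genotypes differed by 0.03 ± 0.09 (95% interval -0.17 to 0.22, adjusted p = 0.897), and by -0.042 without array 3 of the heterozygous eyes. Under every alternative run the difference at 28 dpf passed, between 0.80 and 1.09, and array 2 of the mutant eyes did not decide it (0.96 without it). With age in heterozygous eyes mb was the only gene of the 8 that fell past the threshold, where 6 rose. Of all genes tested 22.1% fell.

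Since 5 genes (mylpfa, tnnt3b, tnnc2.2, ckma and ckmb) were low together on array 2 of the mutant eyes at 28 dpf, the remaining genes were set against their mean within each array. The 5 were chosen after their values were seen, so the values are descriptive. Relative to heterozygous eyes at 7 dpf, the mean of the 5 was 1.68, 1.70 and 1.76 higher on the heterozygous arrays at 28 dpf and 1.91, 0.72 and 1.97 higher on the mutant arrays. Thus arrays 1 and 3 of the mutant eyes lay above, and array 2 below, the heterozygous arrays. The log2 ratio of each remaining gene to the 5 was likewise set to a mean of 0 in heterozygous eyes at 7 dpf. The ratios below are thus differences from those eyes and do not compare the levels of genes. For acta1b the ratio was -0.07, 0.08 and 0.62 on the heterozygous arrays at 28 dpf. On the mutant arrays of that age it was -1.33, 0.03 and -1.16. On mutant arrays 1 and 3, where the 5 genes were higher than on the heterozygous arrays, the ratio of acta1b lay below that of every heterozygous array of that age. On all 3 mutant arrays every such ratio is in part fixed by the choice of the 5, which were low on array 2 against arrays 1 and 3. The ratios are therefore no separate evidence on acta1b, acta1a or mb. For acta1a the ratio, relative to heterozygous eyes at 7 dpf, was -1.638, -1.867 and -1.665 on the heterozygous arrays at 28 dpf. On the mutant arrays of that age it was -1.02, -0.28 and -1.58. Its mutant array 3 thus lay close to the heterozygous arrays. The ratio of mb to the 5, relative to heterozygous eyes at 7 dpf, was -2.64, -2.56 and -2.87 on the heterozygous arrays at 28 dpf. On the mutant arrays of that age it was -1.82, -0.95 and -2.10. On mutant arrays 1 and 3 mb was higher in relation to the 5 genes than on any heterozygous array of that age. Given that choice, neither these ratios nor the higher one on array 2 can be read as a result of their own.

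Other muscle genes were taken from 6 lists of fibre and myogenic genes, without the 10 genes, and 85 of them were tested. With age 49 of the 85 (57.6%, against 20.9% of all genes) rose and 10 (11.8%, against 22.1%) fell in heterozygous eyes. In mutant eyes 48 (56.5%, against 26%) rose and 10 (11.8%, against 37.9%) fell. The filter favours rises here, since 17 of the 85 lay above the 33rd percentile on no array at 7 dpf and 0 on no array at 28 dpf. With no filter 72 of 157 rose in heterozygous eyes (45.9%, against 17% of 19260 genes) and 70 in mutant eyes (44.6%, against 22.3%). Between the genotypes 1 (1.18%, against 4.05% of all genes) rose and 5 (5.88%, against 8.4%) fell at 7 dpf (limma, adjusted p under 0.05; median 0.04 against -0.03 over all genes). At 28 dpf 21 (24.7%, against 21.8% of all genes) rose and 33 (38.8%, against 39%) fell, shares near the background (median -0.15 against -0.09 over all genes). Without array 2 of the mutant eyes at 28 dpf the 33 falls became 23, with 22 rises, and centring the arrays on the median of their named probe sets gave 34 rises and 15 falls. That centring moved the median difference of all 14002 genes at 28 dpf by 0.20, so the balance of rises and falls at that age depends on the scaling. After centring 9126 of the 14002 genes were called at 28 dpf, 64% of them rises, against 8513 and 35.8% before it. Centred counts of any list are to be read against those centred figures.

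The thick filament and M band list had 0 of 14 genes that rose and 6 that fell in mutant eyes at 28 dpf (median -0.38). The falls are 42.9% of the list. Each list at this age is to be read against the 21.8% of all genes that rose and the 39% that fell. Counts after centring are to be read against the centred calls of all genes, 64% of which were rises. Among the falls were the giant spring protein genes ttn.1 (-0.62) and ttn.2 (-0.59), the fast myosin heavy chain gene myhz1.1 (-0.58) and mybphb (-0.49). The 6 falls became 2, with 2 rises, without array 2 of the mutant eyes. They became 3 without array 3 of the heterozygous eyes at 28 dpf. Centring gave 3 rises and 1 fall. In the thin filament and Z disc list 20% (4 of 20) rose and 40% (8) fell (median -0.12). The troponin I gene tnni2a.2 (-1.28), neb, of the ruler protein nebulin (-0.75), and xirp2a (-0.68) fell. Of these, tnni2a.2 and xirp2a lay above the 33rd percentile on 5 of 12 arrays, all at 28 dpf, and their mutant means of 6.10 and 6.31 are near it, so these falls are sized against dim levels. In the same list actn2b, an alpha actinin gene of the Z disc, rose by 0.98 ± 0.09 (adjusted p = 2.56e-07). Like mb, actn2b fell with age in heterozygous eyes (-1.08 ± 0.09, adjusted p = 1.29e-07) and not past the threshold in mutant eyes (-0.16 ± 0.09, adjusted p = 0.144). Centring turned the counts of this list to 8 rises and 4 falls, and the rises were 2 without array 3 of the mutant eyes at 28 dpf.

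Of the genes of calcium release and uptake 3 of 13 rose and 6 (46.2%) fell at 28 dpf (median -0.20). The calcium pump gene atp2a1 (-0.66), the parvalbumin gene pvalb4 (-0.59) and the calcium channel gene cacna1sa (-0.52) fell, and the junctophilin gene jph1a rose (0.79). The falls were 3 without array 2 of the mutant eyes and 4 without array 2 or array 3 of the heterozygous eyes at 28 dpf. Centring gave 5 rises and 2 falls. Of muscle energy genes 3 of 14 rose and 7 (50%) fell (median -0.26): the phosphorylase kinase gene phkg1a (-1.38 ± 0.09, adjusted p = 9.01e-09), the glycogen phosphorylase gene pygma (-0.93) and the aldolase gene aldoab (-0.68) fell, and the AMP deaminase gene ampd3a rose (0.73). Centring gave 4 rises and 4 falls.

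Among genes of the endplate and the fibre membrane 4 of 12 rose and 4 fell (median -0.03). The acetylcholine receptor subunit gene chrnb1l differed by 1.11, but lay above the 33rd percentile only on the 3 mutant arrays at 28 dpf (mean 6.94, against 5.83 to 5.88 in the other groups), so its call is fixed in part by the filter. The gene dok7a rose by 0.42, and the dystrophin gene dmd (-0.51) and the membrane repair gene dysf (-0.47) fell. The rises were 2 without array 3 of the heterozygous or array 1 of the mutant eyes at 28 dpf, and centring gave 6 rises and 2 falls. Of the myogenic regulators 58.3% (7 of 12) rose, mef2cb (0.53) and tbx1 (0.38) among them, and 16.7% (2) fell, mstna (-0.53) and eya1 (-0.43), with a median of 0.23 (8 and 2 after centring). Of these, tbx1 was dim on 9 of 12 arrays and mstna on 7. No heterozygous array put tbx1 above the 33rd percentile, only 1 mutant array at 7 dpf and 2 at 28 dpf. The call of tbx1 is thus fixed in part by the filter. The rises of this list were 5 without array 2 of the mutant eyes at 28 dpf (median 0.16), and the falls stayed at 2. Several of these regulators and calcium genes are also expressed outside muscle.

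**Figure D5:**
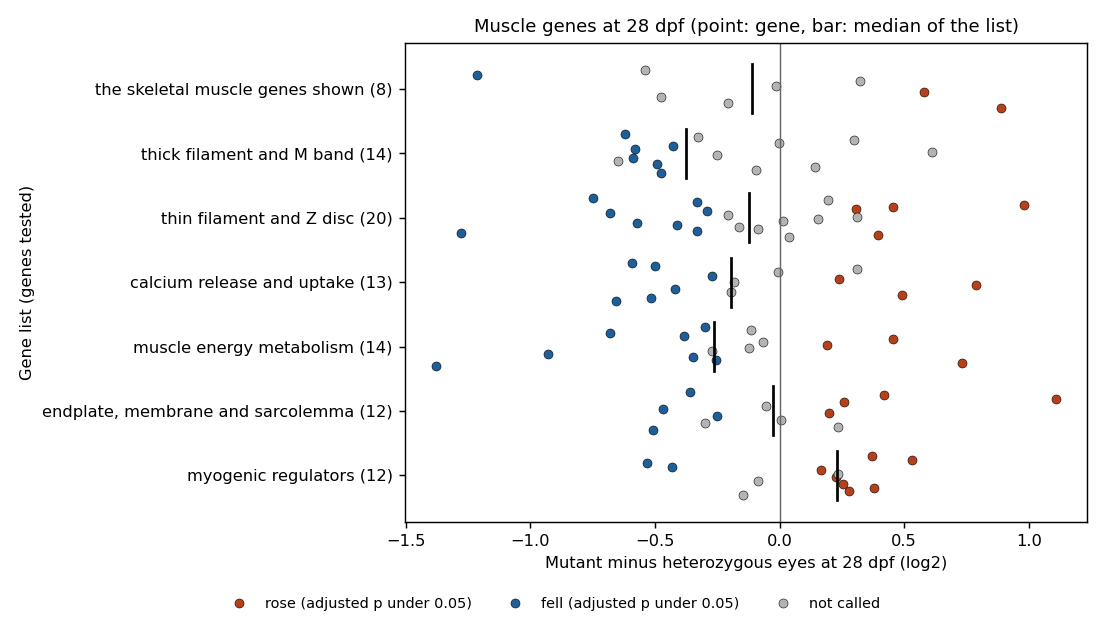
Difference between mutant and heterozygous eyes at 28 dpf (log2, horizontal axis) of the 8 tested genes (top row) and of the tested genes of 6 muscle lists, each point a gene, coloured by whether it rose, fell or did not pass, with a bar at the median of each row. In every row some genes lie on each side of 0, from -1.38 (phkg1a) to 1.11 (chrnb1l).

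Lists of other tissues were read in the same way against 39% of all genes that fell and 21.8% that rose. In mutant eyes at 28 dpf 66.7% (8 of 12) of the tendon and connective tissue genes fell and 0 rose (median -0.93), with col6a2 at -1.68 and col1a1a at -1.28. The mean level of that list ran from 8.77 to 8.93 on the heterozygous and from 8.02 to 8.21 on the mutant arrays at 28 dpf. Of 10 smooth muscle and pericyte genes 5 (50%) fell and 0 rose (median -0.29; list means of 8.29 to 8.35 against 7.92 to 8.05). Among 15 cartilage genes 2 rose and 7 (46.7%) fell, or 4 without array 2 of the heterozygous group at that age (median -0.23; 7.29 to 7.44 against 7.08 to 7.15). Of 14 skin and corneal genes 2 rose and 4 fell (median 0.08; 8.81 to 8.87 against 8.60 to 8.73). Of 23 retina, lens and pigment epithelium genes 6 rose and 6 fell (median 0.0037; 11.43 to 11.47 against 11.41 to 11.42). Of the 2 cardiac genes tested, gata4 rose (0.29), a call lost without array 1 or array 2 of the heterozygous or array 1 of the mutant group, and the other did not pass, and the list means of 6.26 to 6.35 and 6.40 to 6.61 do not overlap. With centred arrays the rises and falls were 2 and 8 for tendon, 2 and 4 for smooth muscle and 3 and 2 for cartilage. They were 9 and 4 for skin and 14 and 2 for the retina, lens and pigment epithelium list. Among all genes 64% of the calls at that age were rises after centring, against 35.8% before it. The part of these tissues in the differences of the muscle genes was not tested.

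The genes most like the 8 muscle genes were sought by the root mean square distance, over the 12 arrays, between a gene's level centred on its mean and the mean of the 8 centred genes. The 8 nearest were slc25a4 (distance 0.19 on the log2 scale), actn3a (0.19), rom1a (0.20), rnf150a (0.21), fam124a (0.22), pkmb (0.22), nudt9 (0.22) and kcnv2a (0.22). Over all other genes the median distance was 0.61. Of the 8 muscle genes themselves, tnnt3b lay nearest to their mean (0.09), mylpfa, tnnc2.2 and acta1b lay at 0.46 to 0.49, acta1a at 0.54 and mb farthest (0.88). The mitochondrial ADP/ATP carrier gene slc25a4 and the alpha actinin gene actn3a belong to the muscle lists, and the other 6 do not.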

How the data were processed

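RNA of whole eyes was measured on 12 Affymetrix arrays, in 4 groups of 3 set by the titles. The authors deposited 1 log2 intensity for each probe set and array, made with Affymetrix Expression Console and RMA, per the submitters' processing notes (without versions). Precision is limited by the number of arrays. Probe sets were named through the platform's annotation, and only those with 1 symbol were used (20806 of 75212; 855 had several). The brightest probe set stood for a gene. Group differences came from limma 3.58.1 under R 4.3.3 (1 mean per group, all 12 arrays in a fit, eBayes with trend, Benjamini-Hochberg over 14002 genes), and the fit was tested on simulated data. No batch is named in the sources used here.

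Genes named beside the 10 follow a rule, with exceptions. Up to 4 per list were named, those past the threshold at 28 dpf with the largest differences, or the 2 brightest if none passed. The 8 nearest by distance were named too. Outside the rule are the genes low on array 2 of the mutant eyes at 28 dpf and tnnc2.1, named after values were seen. So are mmachc, hspa8 and the tissue markers given with the array levels. The 10 genes and the lists were chosen with earlier results of these data known. Of the entries of each list, between 0 and 10 matched no gene on the array. Alternatives were the filter, the probe sets, the scaling, the variance trend, the groups fitted, the replicate block and leaving out each array.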

Additional observations from a re-analysis of the deposited data

Results flagged for a closer look

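For 2 of the 8 genes the genotype effect differed between the ages by the interaction term of the fit across all genes. The interaction of acta1b was -1.45 (limma adjusted p = 0.00028, between 0.000168 and 0.00921 over all alternatives), with a genotype difference of 0.24 at 7 dpf and -1.21 at 28 dpf. That of mb was 0.86 (adjusted p = 6.59e-05, between 7.29e-06 and 0.000257), with genotype differences of 0.03 and 0.89. At 28 dpf all 3 mutant arrays lay below the 3 heterozygous arrays for acta1b and above them for mb.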

How the results depend on the processing

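Of 822 values of single genes under an alternative, 774 kept their direction and their side of the threshold, 11 lost a call, 12 gained one and 25 changed sign. None of these 25 had passed the test or passed it after the change. A difference is not moved by leaving out an array of a group not compared, by the replicate block, by the variance trend or by dropping the filter. Under those settings no direction could change, so the 774 are partly fixed in advance. At 7 dpf mylpfa (-0.0222), mb (-0.0421) and tnnc2.2 (-0.0172) changed sign without array 3 of the heterozygous eyes, also when array 2 of the mutant eyes at 28 dpf was left out with it. Leaving out both low arrays was chosen after seeing the data. Leaving out single arrays gave -0.1818 to 0.3322 for acta1a, -0.0222 to 0.5948 for mylpfa, -0.0421 to 0.1209 for mb and -0.0172 to 0.1883 for tnnc2.2 at that age. At 28 dpf the ranges were -0.3763 to 0.1168 for tnnt3b, -0.2466 to 0.3969 for ckma and -0.8205 to 0.0051 for tnnc2.2, with the upper ends reached without array 2 of the mutant eyes, alone or with the other low array, and ckma was 0.1833 with centred arrays. The interaction of ckmb ranged from -0.2699 to 0.2792 and was 0.0979 with centred arrays and 0.3555 without both low arrays, where that of tnnc2.2 was 0.0224. With age acta1a in heterozygous eyes ranged from -0.0608 to 0.0678, and mb in mutant eyes was 0.0141 with centred arrays. The cause was not tested. Centring moved the median difference of all genes by 0.17 for the interaction and 0.13 for age in mutant eyes, and raised the share of rises among calls from 35.8% to 64% at 28 dpf, from 38.3% to 64.7% for the interaction, from 40.7% to 59% for age in mutant eyes and from 32.5% to 42.8% at 7 dpf. The deviations of same-numbered arrays correlated at -0.097 to 0.139, with 2 of 12 pairs over 0.1, so the numbers were not taken as pairs. For the genotypes at 28 dpf, with correlations of 0.139, 0.088 and 0.096, 6 of 6 arrays nonetheless correlated best with their own number, a hint from the data and not the design, against 2, 2 and 0 of 6 in the other comparisons. With the replicate number as a block 8547 genes were called at 28 dpf, against 8513 without it, and of the 8 genes 2 rose and 1 fell, as without it. Counts of the 8 genes also moved in other settings. At 7 dpf 1 rose when only those arrays were fitted. With a filter at the 50th percentile, which tests 6 of the genes, 1 rose at 28 dpf and 5 rose with age in either genotype. With centred arrays 3 rose at 28 dpf and 2 had a positive interaction. With age in mutant eyes 6 rose, against 7, with the mean over probe sets and when only those arrays were fitted. Leaving out each array in turn gave 0 to 2 rises and 0 falls at 7 dpf, 1 to 3 rises and 1 to 2 falls at 28 dpf, 1 to 2 of each for the interaction, 6 rises and 1 fall with age in heterozygous eyes, and 5 to 7 rises and 0 falls in mutant eyes.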
